A study of Arabidopsis thaliana with 9 samples.

Results

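The 9 genes described here encode 9 Arabidopsis thaliana proteins that act at the start or the control of pre-mRNA splicing: the U2AF subunits U2AF35A, U2AF35B, U2AF65A and U2AF65B, the cap-binding proteins CBP20 and CBP80, the kinases AFC1 and AFC2, and STA1. They were set by locus identifier with no cut on their values, but earlier results of these data were known at the time. All 9 were found among the 27218 genes of the deposited table. They carried 29 of the 68898 deposited transcripts. RNA was sequenced from whole seedlings of 3 genotypes, with 3 libraries each: SR45a-1a-OE, which overexpresses the SR45a-1a form of the splicing factor SR45a, the mutant sr45a, and wild type (WT). All groups shared the same age and treatment: 2 weeks old, grown on plates under long days, then held at 45 °C for 3 h. With every library heated, the heat response of these genes could not be measured, and each comparison is between genotypes under heat. The labels speak of several overexpression lines without saying which library came from which line, and the sources used here give neither the promoter of the transgene nor the sr45a allele. They also do not say whether replicates came from separate plants or cultures, so the p-values reflect how far these particular libraries spread, which may be technical.

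An intron is marked by a GU at its 5′ end, and by a pyrimidine-rich stretch and an AG at its 3′ end. U2AF is a heterodimer: its large subunit (U2AF65) binds the pyrimidine-rich stretch, its small subunit (U2AF35) recognises the AG, and together they help the U2 snRNP to the branch site. CBP20 and CBP80 form the nuclear complex that binds the cap of new transcripts, AFC kinases belong to the LAMMER (CLK) family that phosphorylates serine/arginine-rich splicing factors, and STA1 is the PRP6-like protein that links U5 and U4/U6 snRNPs. STA1 is known in Arabidopsis for mutants that are sensitive to cold and to heat. SR45a itself is a heat-induced serine/arginine-rich protein.

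Gene counts summed to between 18036195 and 21864604 per library. CPM below are counts scaled to a common library size with TMM factors, and FPKM are the deposited values per transcript length. SR45a, the gene altered in both lines, followed the labels: its lowest and highest libraries reached 1009.9 and 1173 CPM in SR45a-1a-OE libraries, 1.90 and 7.27 CPM in sr45a, and 401 and 433 CPM in WT. On the first principal component of all genes, replicate 3 of SR45a-1a-OE and replicate 3 of sr45a were set off from the rest of their genotypes. Their coordinates were -16.2 and -4.70, whereas the other SR45a-1a-OE libraries had -48.3 and -47.0, the other sr45a libraries 25.3 and 22.2, and WT 20.9 to 25.3. Calls among the genes described here are given with and without 1 or both of these libraries. Those of the wider gene lists are given only with them. Green-shoot marker genes, abundant as in any seedling, summed to 24777–32892 CPM in SR45a-1a-OE libraries, 29083–31582 CPM in sr45a and 23310–28681 CPM in WT, and none of the 4 in the table differed in a comparison with WT. Root markers summed to 1055–1224, 933–1106 and 993–1194 CPM in the same order of genotypes, with 3 of 5 past the test in SR45a-1a-OE and 1 of 5 in sr45a. Seed storage markers summed to 0.789–5.55 CPM in SR45a-1a-OE libraries, 21.4–37.8 CPM in sr45a and 0.532–0.735 CPM in WT. All 3 passed the test in sr45a against WT, and 1 of the 3 was at 0 in every WT library. Flower markers were low throughout, at no more than 9.01 CPM summed, with 1 of 3 at 0 in sr45a and in WT. The part of these marker shifts in the results below was not tested. In whole seedlings, fewer cells of a type and less RNA per cell cannot be told apart.

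The 9 genes spanned a wide range of abundance when set per transcript length. Averaged over the 9 libraries, U2AF65A was highest at 132 ± 17.0 FPKM (SD, n = 9), followed by U2AF35A at 86.5 ± 9.44 FPKM and STA1 at 64.0 ± 19.2 FPKM. AFC2 averaged 35.2 ± 4.21 FPKM, U2AF65B 35.1 ± 2.91 FPKM and CBP20 32.5 ± 3.08 FPKM. CBP80 averaged 17.0 ± 1.89 FPKM, AFC1 15.6 ± 1.36 FPKM and U2AF35B, the lowest, 7.74 ± 0.679 FPKM. U2AF65A was above U2AF35A in every library (lowest 101.7 against highest 101.4 FPKM), while U2AF35A and STA1 overlapped in range, as did AFC2, U2AF65B and CBP20 among themselves, and CBP80 with AFC1. Across all libraries STA1 varied most, with a coefficient of variation of 31.4% in CPM. The other 8 genes lay between 7.38% (AFC1) and 13.5% (U2AF65A), at or below the median of 13.5% over 14563 genes with at least 5 CPM.

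**Figure D1:**
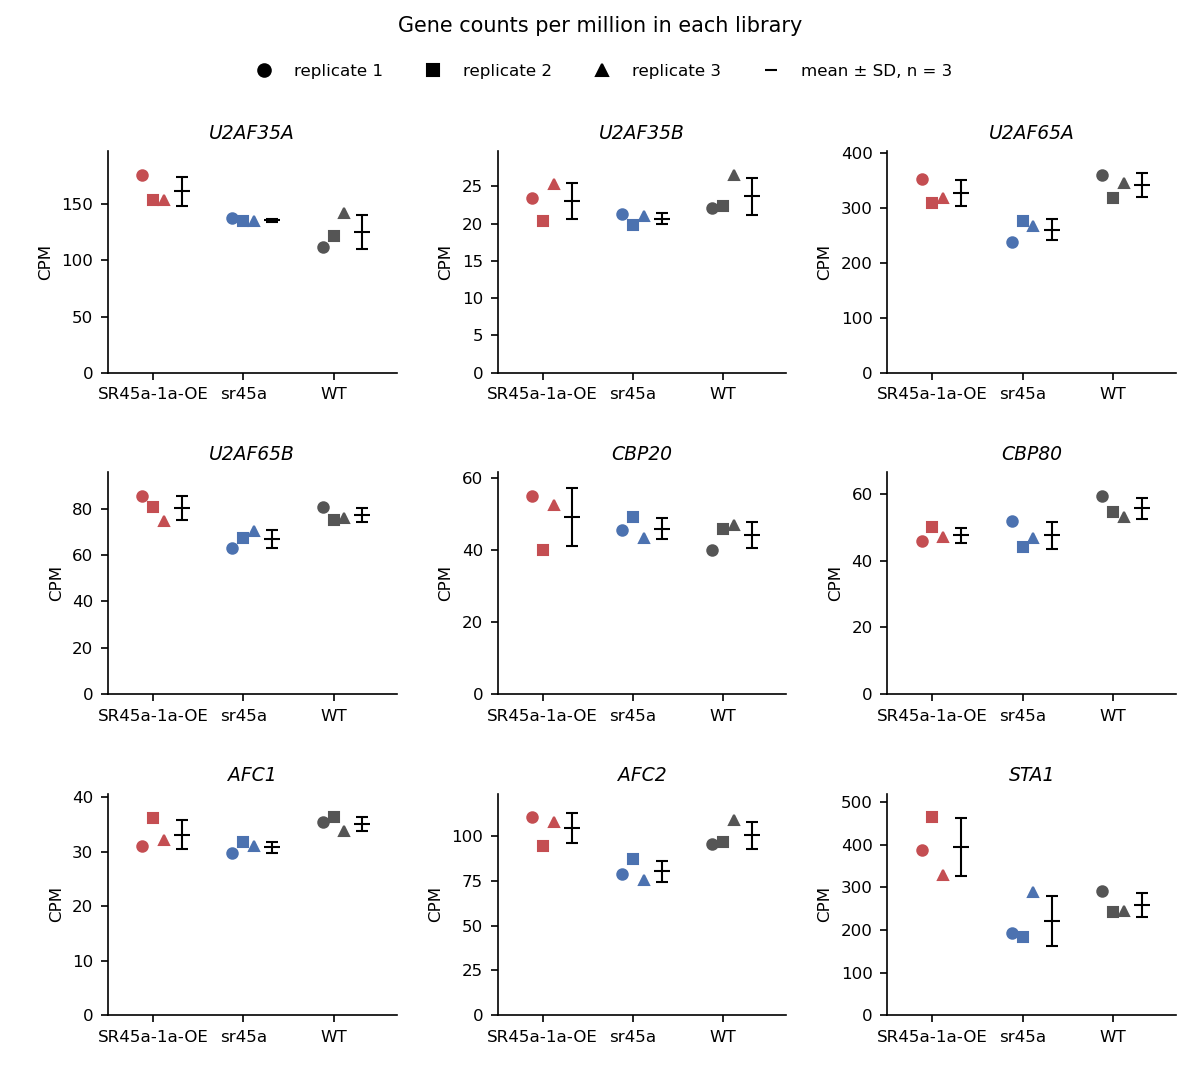
CPM (y axis, from 0) of the 9 genes in each library of SR45a-1a-OE, sr45a and WT (x axis). Symbols are replicates, and bars beside them are the mean ± SD of 3 libraries. STA1 in SR45a-1a-OE (328–464 CPM) lies above all sr45a and WT libraries (183–291 CPM), and U2AF65A in sr45a (239–277 CPM) below all others (309–361 CPM).

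Set against WT, SR45a-1a-OE seedlings had higher levels of U2AF35A and STA1, while the other 7 genes did not pass the test. A gene was called when its Benjamini-Hochberg adjusted p over all 20103 genes tested in edgeR's quasi-likelihood fit was under 0.05. By that rule 2 of the 9 genes were called, both higher, beside a background of 15.3% of all genes called, 6.76% of all genes called higher and 8.59% called lower. The groups did not overlap for 3 of 9 genes, beside 35.5% of all genes. At an unadjusted p under 0.05 there were 3 of 9, beside 32% of all genes. These shares are near the background, so the counts are no result about the 9 genes as a group. The median log2 fold change of the 9 genes was 0.06, and that of all genes 0.01.

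Between sr45a and WT none of the 9 genes was called by edgeR, where 1.62% of all genes were called, 0.861% higher and 0.761% lower. At an unadjusted p under 0.05 there were 4 (U2AF65A, AFC2, CBP80 and U2AF65B, all lower), beside 15.7% of all genes, and DESeq2 called 1, U2AF65A. The sr45a libraries did not overlap the WT libraries for 6 of 9 genes, each of them lower in sr45a, beside 24.1% of all genes. Of the fitted log2 fold changes 7 were negative and 2 positive, with a median of -0.21 beside 0.00 for all genes.

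Between the overexpressor and the mutant, AFC2 and STA1 were called, both higher in SR45a-1a-OE, beside 7.26% of all genes called, 2.81% of all genes called higher and 4.45% called lower. All 9 fitted log2 fold changes were positive, with a median of 0.25 beside 0.01 for all genes, but 7 of them missed the threshold. The groups did not overlap for 5 of 9 genes, beside 25.2% of all genes, and 5 of 9 had an unadjusted p under 0.05, beside 25.1% of all genes. The comparison shares its libraries with the other two, so the 3 sets of values are not independent.

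**Figure D2:**
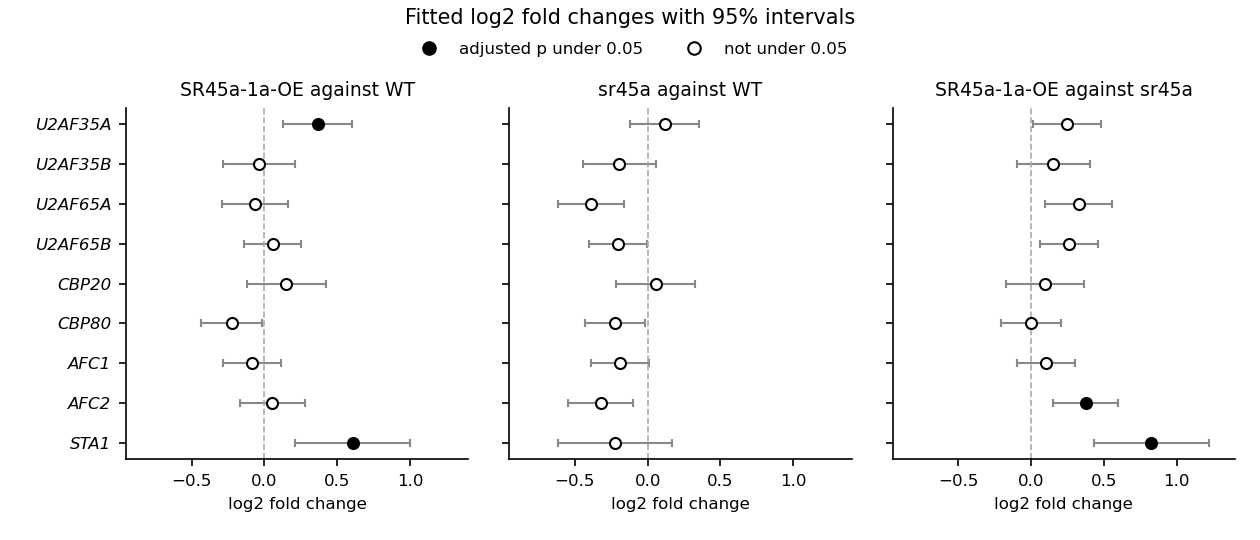
Log2 fold changes (x axis) of the 9 genes (rows) in the 3 comparisons, from edgeR's fit of all libraries, with 95% intervals. Filled points have an adjusted p under 0.05: U2AF35A (0.37) and STA1 (0.61) in SR45a-1a-OE against WT, and AFC2 (0.38) and STA1 (0.83) in SR45a-1a-OE against sr45a.

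The small U2AF subunits are encoded by U2AF35A (AT1G27650; TAIR10.1 chromosome 1, 9614551–9616574, plus strand) and U2AF35B (AT5G42820; chromosome 5, 17169283–17172787, minus strand). U2AF35A had 176, 154 and 154 CPM in SR45a-1a-OE libraries, 137, 135 and 135 CPM in sr45a, and 112, 122 and 142 CPM in WT. All 3 overexpressor libraries lay above every WT and sr45a library, while WT libraries spread around the narrow sr45a range. The gene was 1.29-fold higher in SR45a-1a-OE than in WT (95% interval 1.10 to 1.52; log2 fold change 0.37, SE 0.11, edgeR adjusted p = 0.0405). That call was lost when SR45a-1a-OE replicate 1, sr45a replicate 1 or 2, or WT replicate 1 or 2 was left out, with the lowest log2 fold change (0.29) without WT replicate 1. It was also lost with only the 6 compared libraries in the fit (edgeR adjusted p = 0.0674) and with the replicate number as a block (edgeR adjusted p = 0.0952). Without SR45a-1a-OE replicate 3 it was kept, at 0.40 (edgeR adjusted p = 0.03915). Against WT the sr45a value was 0.12 (SE 0.11, edgeR adjusted p = 0.637), and against sr45a the overexpressor value was 0.25 (SE 0.11, edgeR adjusted p = 0.174).

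U2AF35B, the paralog, was a low-abundance gene with no call. It had 23.4, 20.4 and 25.3 CPM in SR45a-1a-OE libraries, 21.2, 19.8 and 21.002 CPM in sr45a, and 22.1, 22.4 and 26.5 CPM in WT. The sr45a libraries lay just below all WT libraries, and the overexpressor libraries overlapped both groups. Its log2 fold changes were -0.04 (SE 0.11) in SR45a-1a-OE against WT and -0.19 (SE 0.11) in sr45a against WT, with edgeR adjusted p of 0.847 and 0.432. On the deposited FPKM scale U2AF35A exceeded its paralog by 12.6 ± 1.496 times in SR45a-1a-OE, 11.7 ± 0.365 times in sr45a and 9.45 ± 0.339 times in WT (SD, n = 3 each). No WT library (9.06 to 9.71) reached the lowest SR45a-1a-OE (10.9) or sr45a (11.5) library. An exact permutation test of the log2 ratio over all 1680 ways to deal the libraries gave p = 0.0143, which became 0.0571 after adjustment over the 4 pairs tested and missed the threshold. Leaving out SR45a-1a-OE replicate 3 gave an exact permutation p = 0.00357 (adjusted 0.0143), and leaving out that library and sr45a replicate 3 gave 0.00952 (adjusted 0.0381). Every other alternative missed the threshold, with an exact permutation p = 0.0556 (adjusted 0.222) for the replicate block and 0.0964 (adjusted 0.386) for summed transcript FPKM. The block allows far fewer arrangements, with which a single pair alone could not pass after adjustment, so that miss decides nothing. The coding sequences are 76.8% identical, with a longest shared run of 37 bases beside reads of 150 bases.

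Both U2AF35 genes overlap others on the opposite strand. U2AF35A shares 356 bases with AT1G27640, and U2AF35B shares 177, 884 and 981 bases with AT5G42810, AT5G06395 and AT5G42825. The sources used here do not say whether counting used strand, so reads of these partners cannot be told apart from those of U2AF35.

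U2AF65A (AT4G36690; chromosome 4, 17293938–17297761, minus strand) encodes the more abundant large subunit and was lowest in the mutant. It had 353, 309 and 319 CPM in SR45a-1a-OE libraries, 239, 277 and 267 CPM in sr45a, and 361, 318 and 347 CPM in WT. Every sr45a library lay below every library of the other two genotypes, which overlapped each other. In sr45a against WT the log2 fold change was -0.39 (SE 0.10, 95% interval -0.62 to -0.16), with an edgeR adjusted p = 0.0951 that missed the threshold. In SR45a-1a-OE against sr45a it was 0.33 (SE 0.10, edgeR adjusted p = 0.0804), and in SR45a-1a-OE against WT it was -0.06 (SE 0.10, edgeR adjusted p = 0.724). DESeq2 called U2AF65A in sr45a against WT (adjusted p = 0.00876) and in SR45a-1a-OE against sr45a (adjusted p = 0.0214), and edgeR's adjusted p for sr45a against WT reached 0.318 at most over the alternatives.

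U2AF65B (AT1G60900; chromosome 1, 22423894–22428053, plus strand), the paralog, was likewise lowest in sr45a. It had 85.5, 80.7 and 74.9 CPM in SR45a-1a-OE libraries, 63.2, 67.4 and 70.6 CPM in sr45a, and 80.7, 75.02 and 76.2 CPM in WT. The sr45a libraries again lay below all others. Its log2 fold change was 0.06 (SE 0.09) in SR45a-1a-OE against WT, -0.21 (SE 0.09) in sr45a against WT and 0.26 (SE 0.09) in SR45a-1a-OE against sr45a, with edgeR adjusted p of 0.717, 0.306 and 0.105. Without replicate 3 of both SR45a-1a-OE and sr45a, the last of these was 0.35 and was called (edgeR adjusted p = 0.0369). The FPKM ratio of U2AF65A to U2AF65B was 3.70 ± 0.202 in SR45a-1a-OE, 3.53 ± 0.171 in sr45a and 4.01 ± 0.146 in WT (SD, n = 3 each), with an exact permutation p = 0.0464 (adjusted 0.0929). The 2 coding sequences are 68.7% identical, with a longest shared run of 17 bases.

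**Figure D3:**
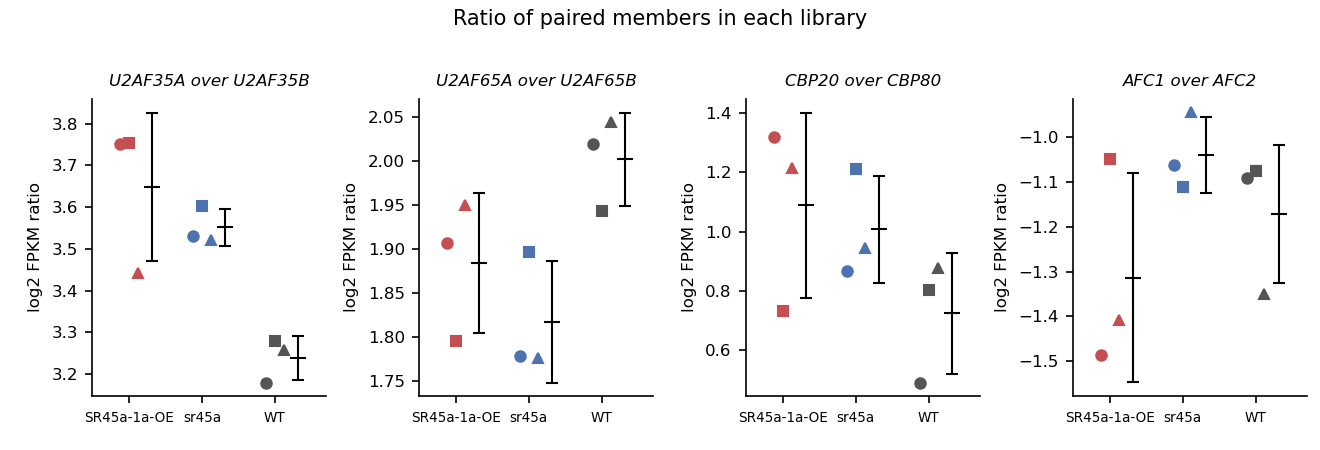
Log2 ratio of the deposited FPKM of paired genes (y axes, which do not start at 0) in each library of SR45a-1a-OE, sr45a and WT. Symbols are replicates 1 (circle), 2 (square) and 3 (triangle), and bars are the mean ± SD of 3 libraries; for U2AF35A over U2AF35B the WT libraries lie below all others.

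Neither cap-binding gene was called in any comparison. CBP20 (AT5G44200; chromosome 5, 17801737–17804203, minus strand), the subunit that contacts the cap, had 55.0, 40.1 and 52.6 CPM in SR45a-1a-OE libraries, 45.6, 49.1 and 43.3 CPM in sr45a, and 40.1, 45.8 and 47.0 CPM in WT. All 3 genotypes overlapped, and SR45a-1a-OE held both the highest and the lowest library. Its log2 fold changes were 0.15, 0.05 and 0.10 in SR45a-1a-OE against WT, sr45a against WT and SR45a-1a-OE against sr45a, with an SE of 0.12 each and edgeR adjusted p of 0.435, 0.868 and 0.67.

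CBP80 (AT2G13540; chromosome 2, 5636884–5643066, plus strand), the scaffold subunit that holds CBP20, was the only one of the 9 genes for which all WT libraries lay above those of both lines. It had 45.8, 50.2 and 47.2 CPM in SR45a-1a-OE libraries, 52.1, 44.1 and 46.8 CPM in sr45a, and 59.5, 54.6 and 53.3 CPM in WT. The lowest WT library, at 53.3 CPM, stood just over the highest sr45a library. The log2 fold changes of -0.22 (SE 0.09) in SR45a-1a-OE and -0.23 (SE 0.09) in sr45a had edgeR adjusted p of 0.126 and 0.277. Between SR45a-1a-OE and sr45a the log2 fold change was 0.0012 (95% interval -0.21 to 0.21; edgeR adjusted p = 0.996). CBP20 exceeded CBP80 in FPKM by 2.16 ± 0.440 times in SR45a-1a-OE, 2.02 ± 0.259 times in sr45a and 1.66 ± 0.227 times in WT (SD, n = 3 each; exact permutation p = 0.243, adjusted 0.243).

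The kinase AFC1 (AT3G53570; chromosome 3, 19861177–19864588, minus strand) had the smallest spread of the 9 genes. It had 31.1, 36.1 and 32.1 CPM in SR45a-1a-OE libraries, 29.7, 31.8 and 31.0 CPM in sr45a, and 35.4, 36.3 and 33.7 CPM in WT. The sr45a libraries lay below all WT libraries, and those of SR45a-1a-OE overlapped both. Its log2 fold changes were -0.08, -0.19 and 0.10 in the 3 comparisons (SE 0.09 each), with edgeR adjusted p of 0.563, 0.346 and 0.515.

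AFC2 (AT4G24740; chromosome 4, 12754489–12757866, minus strand), the more abundant kinase, was higher in SR45a-1a-OE than in sr45a. It had 110.6, 94.8 and 108 CPM in SR45a-1a-OE libraries, 78.8, 87.1 and 75.6 CPM in sr45a, and 95.6, 97.0 and 109 CPM in WT. No sr45a library reached the lowest library of the other two genotypes. SR45a-1a-OE exceeded sr45a 1.30-fold (95% interval 1.11 to 1.52; log2 fold change 0.38, SE 0.10, edgeR adjusted p = 0.0468). The call was lost in 14 of 18 alternatives, and the log2 fold change stayed between 0.31 and 0.44. Alternatives that lost it included removing edgeR's filter on low counts and leaving out any library but SR45a-1a-OE replicate 2. Without SR45a-1a-OE replicate 3 the value was 0.35 (edgeR adjusted p = 0.0672), and without replicate 3 of both lines 0.31 (edgeR adjusted p = 0.0981). Against WT the log2 fold change was 0.06 (SE 0.10) in SR45a-1a-OE and -0.32 (SE 0.10) in sr45a, with edgeR adjusted p of 0.75 and 0.159. The FPKM ratio of AFC1 to AFC2 was 0.406 ± 0.0682 in SR45a-1a-OE, 0.487 ± 0.0291 in sr45a and 0.446 ± 0.0460 in WT (SD, n = 3 each; exact permutation p = 0.204, adjusted 0.243). Within 250 bases upstream of its annotated start, AFC2 was the only one of the 9 genes with a perfect heat shock element core, searched as GAANNTTC or TTCNNGAA on both strands. That word was found in 16.1% of 27443 protein-coding genes, and a match describes letters only.

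STA1 (AT4G03430; chromosome 4, 1516030–1520563, minus strand) had the largest fold changes of the 9 genes in both comparisons with SR45a-1a-OE, but not in sr45a against WT. It had 388, 464 and 328 CPM in SR45a-1a-OE libraries, 193, 183 and 289 CPM in sr45a, and 291, 241 and 243 CPM in WT. The overexpressor libraries lay above all others, while sr45a and WT overlapped through sr45a replicate 3, which stood above the other two sr45a libraries and near the highest WT library. STA1 was 1.52-fold higher in SR45a-1a-OE than in WT (95% interval 1.16 to 1.998; log2 fold change 0.61, SE 0.18, edgeR adjusted p = 0.0417). It was 1.78-fold higher in SR45a-1a-OE than in sr45a (95% interval 1.35 to 2.33; log2 fold change 0.83, SE 0.18, edgeR adjusted p = 0.0218). Between sr45a and WT the log2 fold change was -0.22 (SE 0.18, edgeR adjusted p = 0.583), and -0.46 without replicate 3 of SR45a-1a-OE and sr45a (edgeR adjusted p = 0.106). With those libraries left out, the values in SR45a-1a-OE were 0.72 against WT (edgeR adjusted p = 0.0025) and 1.18 against sr45a (edgeR adjusted p = 0.000469). The call against WT was lost without SR45a-1a-OE replicate 1 or 2, sr45a replicate 1, or any one WT library, with the block (edgeR adjusted p = 0.0855), and with limma at a pseudocount of 1 FPKM (adjusted p = 0.0668) or 0.1 FPKM (adjusted p = 0.0656). The call against sr45a was lost without SR45a-1a-OE replicate 1 or 2, or sr45a replicate 1 or 2, with the block (edgeR adjusted p = 0.0581), and with only the 6 compared libraries in the fit (edgeR adjusted p = 0.0579).

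The transcript tables allowed the forms of each gene to be followed. Deposited transcript estimates run on a larger scale than gene counts: over 3864 genes with a single transcript their median ratio was 3.90. RefSeq annotates a second U2AF35A form, AT1G27650.2, that is absent from the deposited transcripts. Dividing by that median ratio, the deposited form AT1G27650.1 held 110% of the U2AF35A gene count, but other genes were far from it. Annotated transcripts of U2AF65B held 8.73% of the gene count, those of U2AF65A 12.4%, AFC1 17.9%, CBP20 45.0%, STA1 60.1% and CBP80 67.8%, and those of AFC2 between 44.5% and 57.2% over the libraries. Over 7714 genes with at least 500 counts the median was 88.5%, and 23.7% of genes were under 50%. Between 15.3% and 17.9% of a library's estimate lay on transcripts with no gene identifier, and whether these belong to the 9 genes was not tested. Shares below describe the annotated forms only.

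**Figure D4:**
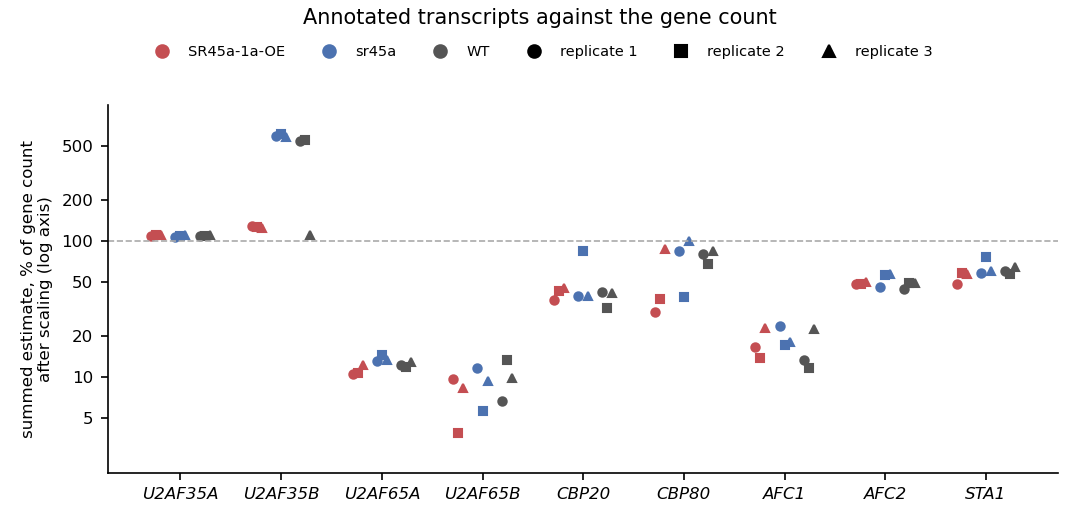
Summed estimate of a gene's annotated transcripts as a percentage of its gene count, after dividing by the median ratio of single-transcript genes (y axis, log scale), in each library; colours are genotypes and the dashed line is 100%. U2AF35A stays within 107–111%, U2AF65B and U2AF65A lie near 10%, and U2AF35B ranges from 111% to 609%.

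U2AF35B went the other way. Its 2 annotated transcripts held 126% to 129% of the gene count in SR45a-1a-OE, 580% to 609% in sr45a, and 541%, 550% and 111% in WT. The form AT5G42820.1 had 1702, 1311 and 1422 estimate units in SR45a-1a-OE, 10512, 8792 and 9565 in sr45a, and 10512, 10340 and 2139 in WT. WT replicate 3 lay nearer the overexpressor libraries than its own group, and the gene count (20.4 to 26.5 CPM over SR45a-1a-OE and WT) showed no such step. Its log2 fold change was -2.31 (SE 0.53, edgeR adjusted p = 0.16) in SR45a-1a-OE against WT and -2.74 (SE 0.54, edgeR adjusted p = 0.167) against sr45a. Without WT replicate 3 both were called, with edgeR adjusted p of 0.00455 and 0.00493. The other form, AT5G42820.2, had 671, 872 and 1255 units in SR45a-1a-OE, 73, 106 and 0 in sr45a, and 0, 128 and 338 in WT. That form took 28.3% to 46.9% in SR45a-1a-OE and at most 13.6% elsewhere, but was not called (edgeR adjusted p = 0.684 against WT and 0.573 against sr45a). Both forms span AT5G06395 on the opposite strand, and AT5G42820.1 also overlaps AT5G42825 by 981 bases. Whether reads of these partners raise the estimates was not tested.

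Across the 9 genes, none of the 27 transcripts tested was called in any comparison by edgeR. In SR45a-1a-OE against WT, sr45a against WT and SR45a-1a-OE against sr45a, 3, 2 and 4 of the 27 had an unadjusted p under 0.05, beside 12%, 7.34% and 10.2% of all transcripts tested. Calls were rare among all 35982 transcripts too: 0.0389%, 0.0556% and 0.0667%. Usage, the share of a gene's estimate taken by each of its transcripts, was tested with edgeR's diffSpliceDGE for the 6 genes with more than 1 tested transcript, and none was called, where 0.342%, 0.292% and 0.342% of 7888 genes were. At an unadjusted p under 0.05 there were 1, 0 and 1 of the 6 genes, U2AF35B each time, beside 5.93%, 6.43% and 6.24% of all. Shares did not overlap between groups for 6, 8 and 7 of 24 transcripts, beside 11.9%, 10.6% and 11.1% of all. The forms of a gene share a total, so their shares are not separate observations. In SR45a-1a-OE against WT the non-overlapping forms were those of U2AF35B, AFC1 and AFC2, and in sr45a against WT of AFC1, AFC2 and STA1. In SR45a-1a-OE against sr45a they belonged to U2AF35B, AFC1, AFC2 and STA1.

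The STA1 forms are shown because their shares separated the mutant from both other genotypes. They were picked for that separation, so the values below are not a test of it. All 3 annotated forms carry the same coding part of 3090 bases and differ in the 3′ UTR, where a proximal intron of 88 bases is removed in forms 1 and 2 and a distal intron of 289 bases in form 1 only. The sites that bound these introns, from TAIR10.1 on the minus strand with the GT and AG of the intron in capitals, are as follows.
Distal intron, 5′ splice site, chr4:1517021-1517035: acagtGTaagaaaac
Distal intron, 3′ splice site, chr4:1516737-1516766: ttgttttattgttgggtaaaactAGtttgc
Proximal intron, 5′ splice site, chr4:1517203-1517217: tctttGTgagtctct
Proximal intron, 3′ splice site, chr4:1517120-1517149: atttgttgttcgtttcatgccttAGccttc
In the 20 bases before the AG, where U2AF65 binds, the distal intron has 55% pyrimidines and the proximal one 75%. The median of 133579 annotated introns is 65% (quartiles 55% and 70%).

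AT4G03430.1, the form without the distal intron, had 5922, 8610 and 6231 estimate units in SR45a-1a-OE, 2174, 1837 and 3513 in sr45a, and 5478, 4289 and 5296 in WT. Every sr45a library was below every other library. AT4G03430.2, which keeps that intron and ends further downstream, had 7728, 13129 and 9078 units in SR45a-1a-OE, 6040, 7532 and 8348 in sr45a, and 8564, 6614 and 7122 in WT.

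Of forms 1 and 2 together, form 1 therefore took 43.4%, 39.6% and 40.7% in SR45a-1a-OE, 26.5%, 19.6% and 29.6% in sr45a, and 39.0%, 39.3% and 42.6% in WT. The means were 41.2 ± 1.94%, 25.2 ± 5.12% and 40.3 ± 2.01% (SD, n = 3), so sr45a lay apart from both, including its replicate 3. Form 3, which removes neither intron and ends just after the proximal one, took 5.25 ± 1.71% of the 3 forms in SR45a-1a-OE, 12.1 ± 2.32% in sr45a and 7.15 ± 1.60% in WT, again with sr45a apart. None of these differences passed a test across all transcripts. The level of AT4G03430.1 had a log2 fold change of -0.90 (SE 0.26, edgeR adjusted p = 0.515) in sr45a against WT and 1.42 (SE 0.26, edgeR adjusted p = 0.155) in SR45a-1a-OE against sr45a. STA1 usage had a diffSpliceDGE adjusted p of 1 in all 3 comparisons.

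**Figure D5:**
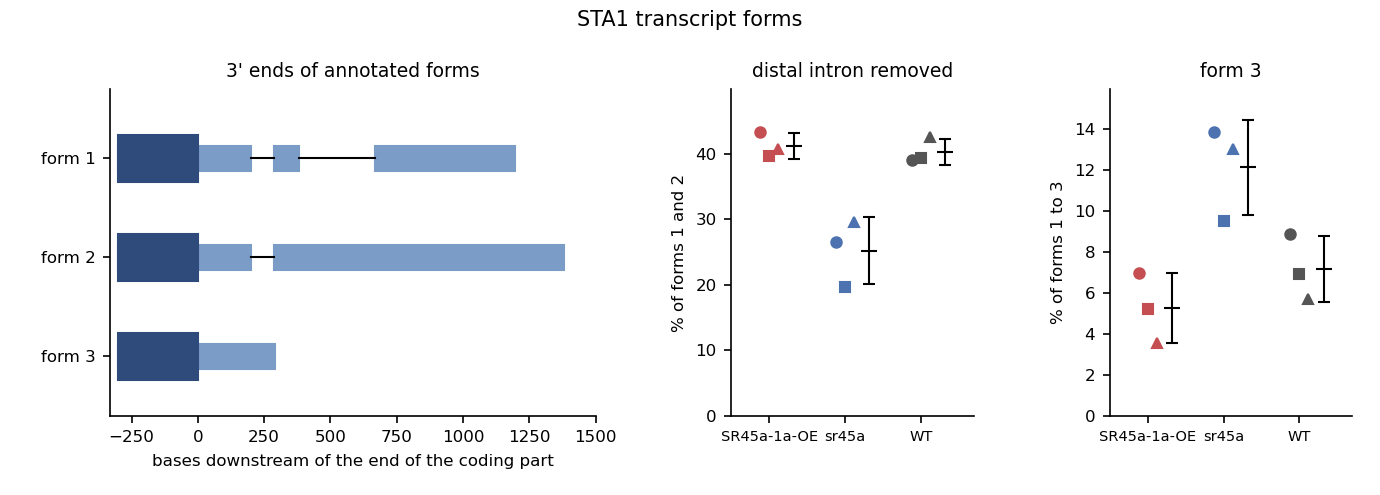
Left, 3′ ends of the 3 annotated STA1 forms in bases downstream of the end of the coding part (dark blocks coding, light blocks UTR, lines introns). Middle and right, percentage of forms 1 and 2 with the distal intron removed and percentage of all 3 forms taken by form 3, per library, with mean ± SD of 3 libraries; sr45a stands at 19.6–29.6% and 9.49–13.9%, apart from both other genotypes.

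AFC2 has 10 annotated forms, and no form dominated. The first intron, of 617 bases, is shown because forms that keep it start translation further downstream in the annotation than form 1. Removing it is not enough for the longer coding part: form 9, which removes it, and forms 2 and 10, which skip the second exon, also start downstream. The sites of the first intron in TAIR10.1, minus strand, have only 45% pyrimidines before the AG, below the lower quartile of all introns.
AFC2 first intron, 5′ splice site, chr4:12757542-12757556: ccaagGTataaattc
AFC2 first intron, 3′ splice site, chr4:12756930-12756959: tgttatggtacatgaatatgtgtAGgctca
Forms that keep the intron took 44.5%, 42.8% and 45.1% of the annotated estimate in SR45a-1a-OE, 41.4%, 36.8% and 38.7% in sr45a, and 44.9%, 44.6% and 41.1% in WT. The sr45a libraries lay below those of SR45a-1a-OE and overlapped WT through their replicate 1. Forms 2 and 10, which skip the second exon, took 14.9 ± 1.43%, 15.3 ± 1.37% and 17.6 ± 1.42% in SR45a-1a-OE, sr45a and WT (SD, n = 3), with overlapping groups. Form 1, with the longest coding part of 1284 bases, took 14.3 ± 1.33%, 15.5 ± 2.60% and 12.6 ± 1.69% in the same genotypes. Forms 3 to 9 each averaged between 5.36% and 15.2% in every genotype.

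In AFC1 form 1 keeps the first intron, forms 2 and 4 end it at a near acceptor, and forms 3 and 5 at a far one. Where the intron is removed, the acceptor sets where the coding part begins. The near acceptor leaves a coding part of 1404 bases and the far one of 1362 bases. The donor and both acceptors, from TAIR10.1 on the minus strand, are given with GT and AG in capitals.
AFC1 donor, chr3:19864353-19864367: ttgcgGTtagtttat
AFC1 near acceptor, chr3:19864149-19864178: cataatctgggtttctgaatttcAGctctg
AFC1 far acceptor, chr3:19864110-19864139: ttttctaatcctttatgcaaagcAGtgtgt
Both acceptors have 60% pyrimidines before the AG. Of the forms that remove the intron, those that use the far acceptor took 70.4%, 77.3% and 71.5% in SR45a-1a-OE, 75.4%, 72.8% and 63.6% in sr45a, and 89.8%, 86.6% and 79.5% in WT. WT lay above both lines in every library. These shares rest on 266 to 424 estimate units per library and on forms that hold 17.9% of the gene count. Form 2, with the near acceptor, had 1, 8 and 56 units in WT, beside 42 to 59 in SR45a-1a-OE and 44 to 55 in sr45a, so WT replicate 3 did not stand apart. Form 1 took 32.1 ± 5.75%, 29.6 ± 7.50% and 28.5 ± 11.9% of the annotated estimate in SR45a-1a-OE, sr45a and WT (SD, n = 3), with overlapping groups. AFC1 usage had a diffSpliceDGE adjusted p of 1 in all 3 comparisons.

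CBP20 has an intron of 95 bases in its 5′ UTR that form 2 removes and form 1 keeps. Its 3′ splice site has the highest pyrimidine content of the sites shown, at 85%.
CBP20 5′ UTR intron, 5′ splice site, chr5:17803986-17804000: cgagtGTaagtgtct
CBP20 5′ UTR intron, 3′ splice site, chr5:17803896-17803925: ctatcctcctctctcatcatcgcAGattca
Form 2 took 0.943%, 2.07% and 8.18% in SR45a-1a-OE, 2.16%, 97.9% and 12.9% in sr45a, and 7.37%, 34.0% and 20.2% in WT. A single library, sr45a replicate 2, accounted for the high mean of its group. In that library form 2 had 3000 estimate units, against 15 to 427 in the other 8, while its CBP20 gene count gave 49.1 CPM.

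For U2AF65A the annotated estimate sat almost wholly on form 2, which keeps the last intron of 273 bases, and with it a shorter coding part of 1629 bases beside 1722 in form 1. Form 2 took 99.4 ± 0.441% in SR45a-1a-OE, 99.5 ± 0.510% in sr45a and 99.6 ± 0.281% in WT (SD, n = 3). The intron has a 3′ splice site with 65% pyrimidines, the median of all introns.
U2AF65A last intron, 5′ splice site, chr4:17294694-17294708: gtttgGTaagagacc
U2AF65A last intron, 3′ splice site, chr4:17294426-17294455: ttgttctttaactcttaaaatgcAGgtgct
Since annotated forms held 12.4% of the gene count, this share leaves most U2AF65A signal out. U2AF65B and CBP80 have 1 annotated transcript each, and their estimates varied far more than their gene counts: AT2G13540.1 of CBP80 had 1088, 1581 and 3452 units in SR45a-1a-OE, 3724, 1257 and 3660 in sr45a, and 4252, 3143 and 3763 in WT.

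The wider machinery was followed with 4 lists of genes, beside the backgrounds given above. Of 18 U1, U2 and branch-site genes, none was called against WT, and 1 was higher in SR45a-1a-OE than in sr45a: AT5G51410, a LUC7-domain protein of the kind found in U1 snRNP, at 70.1 ± 5.41 CPM against 53.9 ± 2.56 CPM (SD, n = 3 each; log2 fold change 0.38, edgeR adjusted p = 0.0319). U1-70K, which recognises 5′ splice sites, had 137 ± 4.08, 136 ± 6.98 and 168 ± 15.3 CPM in SR45a-1a-OE, sr45a and WT, with edgeR adjusted p of 0.0608 and 0.164 against WT. AT2G18510, which encodes a protein with RNA recognition motifs, had 189 ± 36.2, 174 ± 27.5 and 145 ± 6.47 CPM in the same genotypes.

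Of 20 tri-snRNP and LSM genes, the partners of STA1, only LSM6B, part of the ring that binds U6 snRNA, was called. It was higher in SR45a-1a-OE, at 64.0 ± 9.40 CPM against 41.5 ± 3.40 CPM in WT (SD, n = 3 each; log2 fold change 0.63, edgeR adjusted p = 0.00653). In sr45a it had 56.1 ± 0.988 CPM, with a log2 fold change of 0.44 against WT that missed the threshold (edgeR adjusted p = 0.0855). Between SR45a-1a-OE and sr45a its log2 fold change was 0.19 (edgeR adjusted p = 0.321). The highest of the list by mean FPKM were LSM3B and the U5 protein gene YLS8, at 192 and 148 FPKM. In CPM they had 117 ± 52.2 and 211 ± 21.6 in SR45a-1a-OE, 124 ± 57.6 and 188 ± 5.83 in sr45a, and 99.96 ± 32.8 and 174 ± 16.7 in WT. Of 10 cap-binding partners and export factors, only NCBP, another cap-binding protein, was called, with 114 ± 6.97 CPM in SR45a-1a-OE against 85.9 ± 9.04 CPM in WT (SD, n = 3 each; log2 fold change 0.40, edgeR adjusted p = 0.0235). SERRATE, which works with the cap-binding complex in microRNA processing, had 177 ± 16.1, 154 ± 16.1 and 164 ± 10.5 CPM in SR45a-1a-OE, sr45a and WT.

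Of 8 tested genes for kinases of SR proteins and the spliceosome, 1 was called, AT1G13350, a protein kinase. It had 37.2 ± 4.84 CPM in SR45a-1a-OE against 24.5 ± 2.03 CPM in sr45a (SD, n = 3 each; log2 fold change 0.60, edgeR adjusted p = 0.0303). SRPK4 had 36.4 ± 3.75, 31.1 ± 3.96 and 29.8 ± 0.968 CPM in SR45a-1a-OE, sr45a and WT. AT3G25840, the most abundant of these kinase genes by mean FPKM, had 67.2 ± 2.99, 56.4 ± 1.98 and 81.1 ± 15.9 CPM in the same genotypes. Against WT its log2 fold changes were -0.27 in SR45a-1a-OE and -0.52 in sr45a, with edgeR adjusted p of 0.157 and 0.0643. No gene of the 4 lists was called lower in any of the 3 comparisons. Of all genes 8.59%, 0.761% and 4.45% were called lower in SR45a-1a-OE against WT, sr45a against WT and SR45a-1a-OE against sr45a. At most 1 gene per list was called higher in a comparison, beside 6.76%, 0.861% and 2.81% of all genes. The list medians lay between 0.07 and 0.09 in SR45a-1a-OE against WT (all genes 0.01), between -0.04 and 0.00 in sr45a against WT (all genes 0.00) and between 0.09 and 0.15 in SR45a-1a-OE against sr45a (all genes 0.01).

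For each of the 9 genes, the most similar pattern among 14562 others was the one with the smallest root mean square difference of centred log2 CPM over the 9 libraries. The nearest were RBCS2B to U2AF35A (0.04), KNAT5 to U2AF35B (0.05), the PRP38-family gene ATSRL1 to U2AF65A (0.05), and HAG1 to U2AF65B (0.03). ADF1 was nearest to CBP20 (0.04), EICBP.B to CBP80 (0.04), HAM2 to AFC1 (0.04), AT3G60300 to AFC2 (0.06) and ASD1 to STA1 (0.09). The second nearest were AT2G38000, LHCB5, VAD1, AT5G24450, MMZ3, AT2G18900, SIP3, AT5G48412 and MYB82 for the same 9 genes in that order. None of the 9 genes was among the 2 nearest of another, and further ranks were not looked at. How close the best of 14562 patterns comes by chance was not tested.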

How the data were processed

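Whole-seedling RNA was sequenced from 9 libraries, 3 per genotype, in 150-bp read pairs. Per the labels' protocols, the authors trimmed reads with fastp, keeping those of at least 36 bp. The aligner, counting program, strand setting and genome build are not given in the sources used here. The deposited gene tables hold whole-number counts and FPKM, and the deposited transcript tables hold estimated counts and FPKM. Start and end in the deposited tables matched the TAIR10.1 assembly for 26960 of 26967 loci, the 9 genes included, so sequences and transcript models come from that RefSeq annotation.

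Gene counts of all 9 libraries were fitted with edgeR (version 4.0.16, R 4.3.3), using TMM factors, a filterByExpr minimum count of 10, 1 coefficient per genotype and quasi-likelihood F tests, and transcript estimates likewise. Usage was tested with diffSpliceDGE. Adjusted p-values are Benjamini-Hochberg values over all features tested, called under 0.05. Standard errors came from the F statistics. Ratios of paired genes were tested by exact permutation (smallest possible p 0.00357 over all libraries, larger with the block), two-sided by construction. Scripts were tested on simulated data.

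Depth was 18036195 to 21864604 counts per library; replicates differed by far more than counting error (chi-square per gene 5.15 to 39), and intervals cover the spread between libraries. All 9 genes are named, with up to 3 called or 2 most abundant genes of each list. Transcripts that reach 5% of the annotated estimate in a genotype are given singly, as a range, or summed over forms with the same splicing outcome. The genes and lists were chosen with earlier results of these data known. Alternatives were DESeq2 1.42.0, DESeq2 size factors in edgeR, other filters on low values, limma 3.58.1 on log2(FPKM + 1) and log2(FPKM + 0.1), only the compared libraries, a replicate block, other transcript filters, and leaving out libraries. Python 3.11.15 with pandas 2.3.3, Biopython 1.88 and matplotlib 3.10.9 was used.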

Additional observations from a re-analysis of the deposited data

How the results depend on the processing

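The sign of the fitted log2 fold change held in every alternative for 24 of 27 combinations of gene and comparison, whereas calls at the threshold depended on the processing. Of the 9 genes, 0 were called in any comparison with the replicate number as a block. With only the 6 libraries compared, 1 was called in SR45a-1a-OE against WT and 0 in SR45a-1a-OE against sr45a. With limma, at either pseudocount (1 or 0.1 FPKM), 1 was called in each of these comparisons, and without a filter on low counts 1 in SR45a-1a-OE against sr45a. DESeq2 called 1 in sr45a against WT. With 1 library, or replicate 3 of both lines, left out, the count ranged from 0 to 2 in SR45a-1a-OE against WT, was 0 in sr45a against WT, and ranged from 0 to 2 in SR45a-1a-OE against sr45a. Transcript calls ranged from 0 to 1 in SR45a-1a-OE against WT and from 0 to 1 in SR45a-1a-OE against sr45a, and the ratios of paired genes past the threshold from 0 to 1. The cause of these changes was not tested.

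The 3 combinations that changed sign had values near 0. U2AF35B in SR45a-1a-OE against WT ranged from -0.11 to 0.05, and CBP20 in sr45a against WT from -0.004049 to 0.10, with 1 library left out. CBP80 in SR45a-1a-OE against sr45a ranged from -0.0512 to 0.0698 with 1 library left out. It was -8.068e-05 with DESeq2 size factors, -0.001329 with a filter of 1 CPM in 3 libraries, -0.008079 with only the 6 libraries compared, -0.0536 with limma and a pseudocount of 1 FPKM, and -0.0567 with 0.1 FPKM. Among transcripts, AT4G03430.3 in SR45a-1a-OE against WT ranged from -0.20 to 0.31 with 1 library left out, and was 0.001357 with all transcripts in the fit and 0.004763 with the block. In sr45a against WT, AT4G03430.2 ranged from -0.0298 to 0.25 and AT5G42820.1 from -0.0150 to 0.72.

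Same-numbered libraries of different genotypes correlated at -0.33 to 0.19 in their deviations from the group means, and different-numbered ones at -0.30 to 0.34. Deviations within a group of 3 libraries cancel out, so these values cannot tell whether replicate numbers mark a shared batch. With the replicate number as a block, U2AF35A and STA1 in SR45a-1a-OE against WT had log2 fold changes of 0.37 and 0.61 with edgeR adjusted p of 0.0952 and 0.0855. Over all genes, calls in SR45a-1a-OE against WT numbered 1842 with the block beside 3084 without it, and ranged from 975 to 3944 with 1 library left out and to 4524 without replicate 3 of both lines. In sr45a against WT they ranged from 106 to 704 beside 326, and in SR45a-1a-OE against sr45a from 270 to 4160 beside 1459. The acceptor shares of AFC1 rest on 266 to 424 estimate units per library, and whether depth limits them was not tested.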
